A study of Drosophila melanogaster with 2 samples.

Results

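The genes described here are 172 transcripts of the Drosophila melanogaster egg whose mean level was already under 50% of its start before the steep rise of zygotic transcription. They were chosen by their own values: of 7629 genes in the normalized table of 84 embryos, 4230 had a mean normalized count of at least 10 over the first 10 embryos in pseudo-time, and 172 of these had a mean over positions 30 to 40 that was under 50% of that. They are 4.07% of the genes at that level, and the other 4058 serve for comparison. A normalized count is the number of unique molecular identifiers (UMIs, each marking 1 captured molecule) of a gene divided by the total of the embryo and multiplied by the smallest total, so it is a share of the polyadenylated RNA captured and not an amount per embryo. The study states that nuclei share 1 cytoplasm until cellularization. For later embryos, which were homogenized whole, fewer cells with a transcript and less of it per cell cannot be told apart.

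All embryos were untreated wild-type offspring of DGRP-737, an inbred wild-derived line, so no group differs in genotype. They came from 2 cages and were collected at 0-1 h, 1-2 h or 2-3 h, and profiled 1 by 1 with a modified CEL-Seq2 protocol, which counts polyadenylated RNA. The authors ordered the embryos and grouped them into clusters from the same transcriptomes, and these labels are used here. Cluster 1 is divided by position into 1 to 10 (n = 10), 11 to 19 (n = 9) and 20 to 29 (n = 10), and cluster 2 holds positions 30 to 40 (n = 11). Then come clusters 3 (n = 6), 4 (n = 3), 5 (n = 9), 6 (n = 7), 7 (n = 10) and the last cluster (n = 9). Interval and order do not match throughout: 5 embryos collected at 0-1 h stand at positions 57, 75, 78, 82 and 84, in cluster 5, cluster 7 and the last cluster, and 1 collected at 1-2 h stands at position 3. Embryos held between 274425 and 2104120 UMIs over the listed genes (median 931566).

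In the fly, the mother loads the egg with RNA and protein, and the first nuclear divisions run almost without transcription. Destruction of maternal RNA starts with maternally supplied factors that egg activation switches on, such as Smaug, which recruits the deadenylase, together with Pumilio and Brat. A later pathway depends on zygotic products, including small RNAs of the zygote. Transcripts that the embryo needs again are made anew from its own genome.

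The label of clearance before genome activation fits these genes only in part. Normalized counts of 20 zygotic stage markers summed to 3.86 to 10.9 per embryo at positions 1 to 10, to 43.6 to 144 at positions 30 to 40, and to 1950 to 2734 for embryos of cluster 5. The second window of the rule thus already held zygotic RNA, below the level of the major wave. Of the marker lists for other tissues, 1 of 21 follicle cell genes and 2 of 23 testis genes were in the table, and their summed levels were at most 0.355 and 0.404 per embryo in positions 1 to 10. Of 25 adult and larval somatic markers 8 were in the table, 1 of them with a starting mean of at least 10. Their sums were higher, at 12.2 to 38.4 per embryo in positions 1 to 10.

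Together the 172 transcripts made up a median of 2.76% of the UMIs of an embryo in positions 1 to 10, with a range of 2.19% to 3.04%. Later in cluster 1 the median share was 2.57% (positions 11 to 19) and 2.06% (positions 20 to 29). Clusters 2 to 5 had medians of 0.950%, 0.450%, 0.165% and 0.132%, clusters 6 and 7 had 0.201% and 0.277%, and the last cluster had 0.645% with embryos between 0.587% and 0.738%. The embryos of the last cluster lay above every embryo of clusters 4 to 7, and their highest was level with the lowest of cluster 2 (0.738%). The 5 embryos collected at 0-1 h but placed late had 0.158% (position 57), 0.432% (position 75), 0.678%, 0.630% and 0.738% (positions 78, 82 and 84). The shares in positions 1 to 10 and in cluster 2 follow from the rule, and the others do not enter it.

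**Figure D1:**
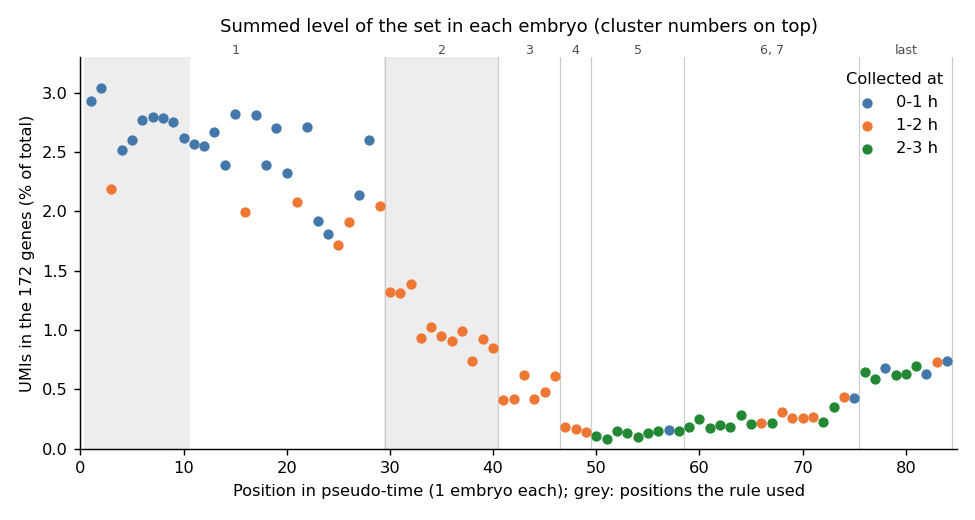
Percent of UMIs in the 172 genes (y axis) against position in pseudo-time (x axis); 1 point is 1 embryo, coloured by collection interval, with the positions used by the rule in grey. The share is 2.19% to 3.04% in positions 1 to 10, under 0.2% throughout clusters 4 and 5, and 0.587% to 0.738% in the last cluster.

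Exuperantia (exu, 2R, positions 20667427 to 20671083), which brings bicoid RNA to the front of the egg, had normalized counts of 295 to 499 (median 359) in positions 1 to 10, and 80.1 to 200.1 (median 117) in cluster 2. Cluster 5 was at 2.51 to 6.03 (median 3.95) and the last cluster at 0.852 to 3.35 (median 1.72), a mean of 0.462% of the start. CG6770 had 1.49 to 4.34 (median 2.56) in the last cluster, against 329 to 493.4 (median 369.7) in positions 1 to 10. These are the genes of the set with the highest starting means, 379.7 ± 48.2 for CG6770 and 377 ± 66.4 for exu (SD, n = 10), and the last cluster was under 1% of this in both.

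The other genes among the 12 of highest level were yin, yata, GstD1 (a glutathione transferase), Cyp6a19 (a cytochrome P450), vig2 (a chromatin-bound relative of a RISC component), CG1890, NAT1 (a relative of the translation factor eIF4G), Tpi (triose phosphate isomerase of glycolysis), Rilpl and sut1 (a sugar transporter). Their starting means lay between 116 and 222. GstD1 had 0 to 1.72 (median 0.426) in the last cluster, with 0 UMIs in 2 of its 9 embryos, against 121 to 230 (median 169.8) in positions 1 to 10. Cyp6a19 likewise had 0 to 1.29 (median 0.316) in the last cluster, against 127 to 179 (median 156.5) in positions 1 to 10. Both were thus near 0 at the end. In contrast, NAT1 (2R, positions 12915994 to 12923734) had 40.7 to 211 (median 128) in positions 1 to 10 and 11.4 to 30.3 (median 14.4) in cluster 3. Its last cluster was at 81.6 to 118 (median 98.7), a mean of 74.1% of the start.

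The 10 genes with the smallest share left in cluster 2 were hoip (a protein of the U4 snRNP and of small nucleolar RNPs), CG31075, Mis12 (a kinetochore protein), P32, Smyd5, MsrA (methionine sulfoxide reductase), RNF220, Jheh3 (a juvenile hormone epoxide hydrolase), Brca2 (DNA repair) and CG2540. The mean of hoip (2L, positions 9699791 to 9700459) in cluster 2 was 8.98% of its start: 3.31 to 16 (median 5.01) in cluster 2, against 33.8 to 114 (median 80.9) in positions 1 to 10, as the rule selected. In cluster 3, which the rule did not use, hoip had 0 to 3.07 (median 1.85).

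Just inside the limit of 50% were ERp44 (49.96%), Pfdn6 (49.8%) and shu (49.8%), and just outside it were CG6340 (50.1%) and Ahcy (50.1%). Just inside the minimum level were Tgt, CG3566 and Coq9, with starting means of 10.03, 10.04 and 10.18, and just under it were CG33228, ebd1 and U2A, with 9.91, 9.85 and 9.70. The set has no gap at either limit.

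Transcripts of the set kept going down after the window that selected them. All 172 had a lower mean in cluster 3 than in cluster 2, and 166 a lower mean in cluster 4 than in cluster 3. Relative to positions 1 to 10, the median over the genes was 90.5% and 78.2% for the later parts of cluster 1. Clusters 2, 3, 4 and 5 followed with 38.7%, 16.9%, 3.97% and 2.41%. Over the 4058 other genes with a starting mean of at least 10 the median was 103.6% and 83.1% for clusters 3 and 5. By the mean over cluster 5, 148 of the 172 genes were under 10% of their start and 33 were under 1%, and 605 of the other 4058 were under 10%.

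Most courses crossed 10% of the start within a few embryos of each other. With a running median over 5 embryos, 165 of the 172 genes reached 10% of their starting mean, at a median position of 47, which is the first embryo of cluster 4. Positions are ranks and not times. At position 47 the running median already rests mostly on the 3 embryos of cluster 4, so a drop to under 10% between clusters 3 and 4 is placed there. In 98 genes the crossing fell at positions 47 to 49 and in 52 at positions 41 to 46, while 12 crossed by position 40 and 3 after position 49. CG2182, pns, crim, mib1, Pfdn6, NAT1 and PNUTS did not reach 10%. Among the 12 early ones were hoip and CG31075 at position 33 and MsrA at position 35, and also Osi6 at position 9, which did not decline steadily.

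**Figure D2:**
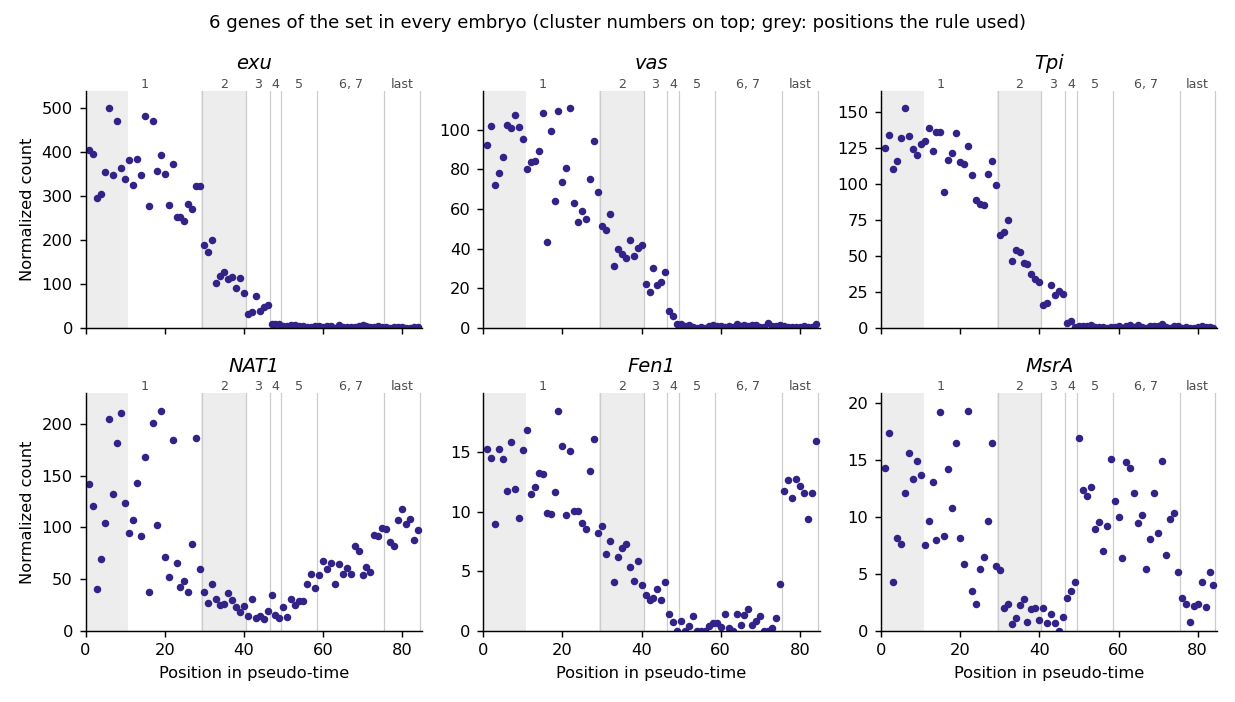
Normalized count (y axes, each from 0) of exu, vas, Tpi, NAT1, Fen1 and MsrA against position in pseudo-time (x axis); 1 point is 1 embryo, cluster numbers stand on top and grey marks positions the rule used. Counts of exu, vas and Tpi are near 0 from cluster 5 on, NAT1 and Fen1 are high again in the last cluster (81.6 to 118 for NAT1), and MsrA is high in cluster 5 and low in the last cluster.

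The first test asked whether the decline had begun within cluster 1, comparing positions 20 to 29 with positions 11 to 19, embryos that did not select the genes. With edgeR's quasi-likelihood test, adjusted over 7619 genes by Benjamini-Hochberg, 0 of the 172 genes were called at an adjusted p under 0.01, against 0% of all genes called lower and 0% called higher. The log2 fold change was negative in 167 of the 172 and had a median of -0.28 (quartiles -0.40 and -0.20), against a median of 0.01 over the other 4058 genes. An unadjusted p under 0.05 was found for 80 of the 172 and 589 of all 7619, and the smallest adjusted p was 0.0685. DESeq2 and limma called 0 of the 172 as well. The position of an embryo was itself derived from these transcriptomes, so the 2 groups were not set apart independently of expression.

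Embryos of cluster 1 were also compared by collection interval, which was fixed before sequencing. The cluster and the order decided which embryos entered, but not their group. At positions 11 to 29, 5 embryos had been collected at 1-2 h and 14 at 0-1 h. The windows of the rule differed in interval too: all 11 embryos of cluster 2 had been collected at 1-2 h, against 1 of 10 at positions 1 to 10. The genes had thus been chosen in other embryos for lower values at later collection, and the counts that follow are not independent support for a decline. Of the 172 genes, 13 were lower at 1-2 h and 0 higher, while 0.354% of all genes were called lower, 0.617% higher and 0.971% in either direction (edgeR, adjusted p under 0.01). The median log2 fold change was -0.34 for the 172 genes and 0.00 for the other 4058, and it was negative in 155 of the 172. The share of UMIs in the 172 genes was 1.72% to 2.08% (median 1.99%) in the 1-2 h embryos and 1.81% to 2.82% (median 2.56%) in the 0-1 h embryos, so the groups overlapped. The 1-2 h embryos also stood later in pseudo-time, at a median position of 25 against 18.

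The genes that were lower at 1-2 h were CG8112, CG17202, pad (a zinc finger protein), jar (myosin VI), yata, Dhc64C (the dynein heavy chain), CG6638, NAT1, Camp, P32, MagR (an iron-sulfur cluster protein), CG15047 and hoip. P32 had 9.85 to 18.2 (median 12.6) in the 1-2 h embryos, against 13.3 to 58.1 (median 37.9) in the 0-1 h embryos, a log2 fold change of -1.43 ± 0.27 (SE, adjusted p = 0.00284). NAT1 had 37.1 to 59.8 (median 48.4) in the 1-2 h embryos, against 42.7 to 213 (median 105) in the 0-1 h embryos, a log2 fold change of -1.37 ± 0.27 (adjusted p = 0.0035). For both genes the groups overlapped in their lower range. CG6638 had 20.6 to 26.5 (median 24.4) in the 1-2 h embryos, against 25.8 to 59.1 (median 51) in the 0-1 h embryos, with a log2 fold change of -0.98 ± 0.15 (adjusted p = 0.00142). MagR was the gene of the 13 whose embryos did not overlap, at 5.30 to 7.63 in the 1-2 h embryos and 7.76 to 17.4 in the 0-1 h embryos. Of all genes 0.0919% were lower and 0.0656% higher without overlap. The count rests on few embryos: without 1 of the 5 embryos collected at 1-2 h it was 1 to 8, with CG6638 the gene called in every such fit, and limma called 0 of the 172 genes.

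The same embryos were low for many genes of the set. The 8 embryos of cluster 1 with the lowest NAT1 included all 6 that had been collected at 1-2 h, at positions 3, 16, 21, 25, 26 and 29, and 2 collected at 0-1 h, at positions 23 and 24. For CG8112, D19A, Dhc64C, P32, RNF220, hoip and yata the 8 lowest embryos were these same 8, and 87 of the other 171 genes (50.9%) shared at least 6 of them, as did 132 of the 4058 other genes (3.25%). The embryo at position 3, used by the rule, had 40.7 NAT1 and 33.8 hoip, the lowest values of positions 1 to 10 for both, although it was placed near the start of pseudo-time. Total UMIs of the 8 embryos ran from 362076 to 1157551. The set had been chosen for values lower in cluster 2, collected at 1-2 h, than in positions 1 to 10, and the 4058 other genes had not met that rule. NAT1 is itself in the set, and positions 1 to 10 were among the embryos ranked. The difference between 50.9% and 3.25% can thus follow from the choice of genes, and how much of it does was not tested. NAT1 was picked for this description after its values had been seen, and the overlap was not tested.

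Osi6 (3R, positions 6234708 to 6237181, of the Osiris family) met the rule without a decline. It had 18.6 to 144 in 41 embryos and 0 to 5 in the other 43. Both kinds were found in every group apart from cluster 4, whose 3 embryos were all high: 8 of 10 embryos were high in positions 1 to 10, 4 of 11 in cluster 2, 5 of 9 in cluster 5 and 2 of 9 in the last cluster. The high embryos came from both cages, 22 of 47 from cage A and 19 of 37 from cage B, and from both sexes, 13 of 30 females and 16 of 31 males. Its mean at positions 30 to 40, 45.4% of the start, is thus a mean over 2 kinds of embryo. Osi6 was also singled out after its values had been seen.

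**Figure D3:**
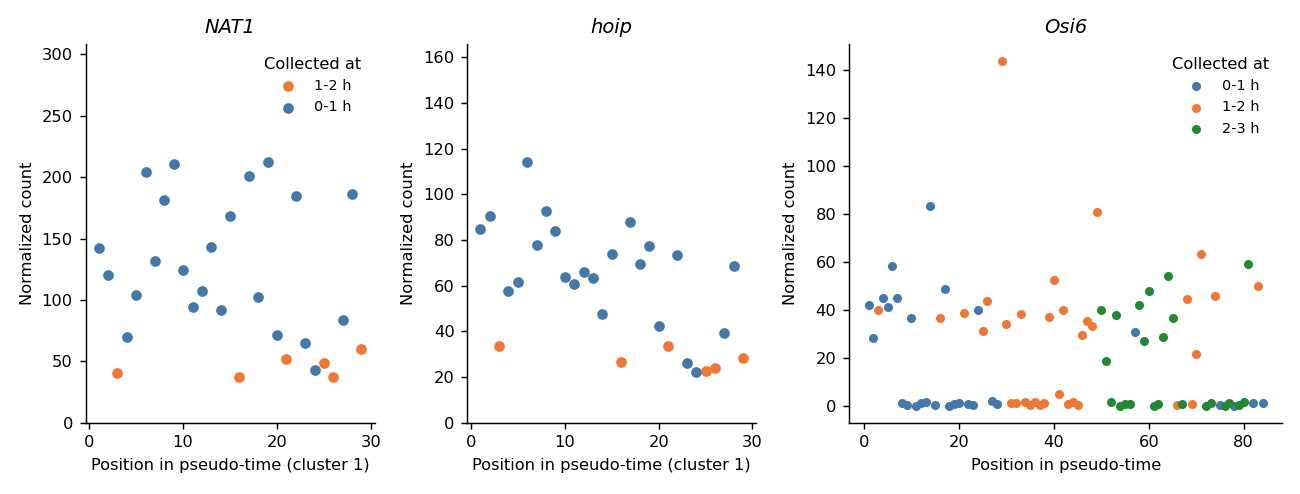
Normalized count (y axes) against position in pseudo-time (x axes) for NAT1 and hoip in the 29 embryos of cluster 1 and for Osi6 in all 84; 1 point is 1 embryo, coloured by collection interval. The 6 embryos collected at 1-2 h are low for NAT1 (37.1 to 59.8), and Osi6 is either at 0 to 5 or at 18.6 to 144 at every stage.

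The next comparison followed the genes through the onset of the major wave. In cluster 5 against cluster 3, 128 of the 172 genes fell and 6 rose (edgeR, adjusted p under 0.01 and more than 1 log2 unit), while 29.4% of all 7619 genes were called lower, 11% higher and 40.4% in either direction. The median log2 fold change was -2.50 over the 172 genes and -0.15 over the other 4058. In 95 of the 172 all embryos of cluster 5 lay below all embryos of cluster 3, as they did in 25.2% of all genes, and in 1 (MsrA) they lay above, as in 9.94%.

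The groups by role used here were made by hand after the values were seen, so their counts are descriptions and stand beside the 74.4% of the whole set that fell. All 9 genes grouped under oocyte and germ line fell: exu, vas, shu, cort, CycJ, gammaTub37C, fs(1)M3, fs(1)Ya and stil. The lists that hold some of them had smaller shares in 2 cases. Of 58 measured genes of egg activation, meiosis and cell cycle entry 33 fell and 1 rose. Of 34 determinants of the axes and germ plasm 16 fell and 1 rose, and of 7 genes listed under yolk uptake and eggshell 6 fell and 0 rose. The last list also holds fs(1)Ya, which encodes a nuclear envelope protein. vas, the germ plasm RNA helicase, had 0 to 2.06 (median 0.836) in cluster 5, against 18.1 to 30.2 (median 22.7) in cluster 3, a log2 fold change of -4.49 ± 0.25 (adjusted p = 1.03e-30). CycJ, a cyclin of the female germ line, had 0 to 1.31 (median 0.782) in cluster 5, against 12.3 to 21.9 (median 17.5) in cluster 3, with a log2 fold change of -4.29 ± 0.29 (adjusted p = 3.35e-25). Neither gene overlapped between the clusters. fs(1)Ya, a nuclear envelope protein of the egg, changed by -4.41 ± 0.34, gammaTub37C, the maternal gamma-tubulin, by -3.49 ± 0.44, and cort, the meiotic activator of the anaphase-promoting complex, by -2.25 ± 0.39 on the log2 scale.

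Of the 21 metabolic and detoxifying enzymes grouped in the same way 18 fell and 1 rose (MsrA). In the list of glycolysis, pentose phosphate and TCA cycle genes (43 measured), which includes 5 of them, 23 fell and 2 rose. Tpi had 0 to 1.81 (median 0.984) in cluster 5, against 16 to 30.2 (median 23.3) in cluster 3, and a log2 fold change of -4.32 ± 0.25 (adjusted p = 9.22e-29). Cyp6a19 had 0 to 3.34 (median 0) in cluster 5, against 10.3 to 25.7 (median 15.8) in cluster 3, with a log2 fold change of -5.19 ± 0.36 (adjusted p = 2.79e-24). The log2 fold change was -2.88 ± 0.26 for Pgk (phosphoglycerate kinase), -3.84 ± 0.24 for Pgd (of the pentose phosphate pathway) and -0.90 ± 0.17 for Pdhb (a subunit of pyruvate dehydrogenase), the last short of the limit of 1.

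The 6 genes that rose in cluster 5 against cluster 3 were RNF220, MsrA, Jra (the fly Jun), NAT1, PNUTS (a regulator of protein phosphatase 1) and SA (a cohesin subunit). MsrA had 7.02 to 16.9 (median 11.9) in cluster 5, against 0 to 2.00 (median 0.963) in cluster 3, a log2 fold change of 3.69 ± 0.42 (adjusted p = 3.45e-13). Its embryos did not overlap, and its mean in cluster 5 was close to that of positions 1 to 10, 11.5 and 12.2. NAT1 had 13.5 to 55.2 (median 29.3) in cluster 5, against 11.4 to 30.3 (median 14.4) in cluster 3, with a log2 fold change of 1.18 ± 0.31 (adjusted p = 0.000465), and its groups overlapped. Only MsrA and PNUTS were called under every alternative: 3 of the 6 were called with library totals in place of TMM factors and 2 with limma.

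Later, most of the set rose again, though mostly to well under the starting level. The median over the genes was 21.5% of positions 1 to 10 in the last cluster, with an upper quartile of 42.8%. In the last cluster against cluster 5, 119 of the 172 genes rose and 5 fell, while 30.8% of all genes were called higher, 20.7% lower and 51.5% in either direction. The median log2 fold change was 2.61 over the 172 genes and -0.03 over the other 4058. In 95 of the 172 all embryos of the last cluster lay above all embryos of cluster 5, as in 22.1% of all genes, and in 1 (MsrA) below, as in 16.7%. In 36 genes the mean of the last cluster was over 50% of positions 1 to 10 and in 8 over 100%, while 45 stayed under 5%. Both comparisons share the embryos of cluster 5. Of the markers of other tissues, both measured testis genes were called higher in the last cluster, with sums of 3.47 to 13.04 per embryo, against 0 to 1.81 in cluster 5. Of the 8 measured of 25 adult and larval somatic markers, 2 were called higher and 6 were not called (median log2 fold change 0.08), with sums of 80.3 to 132 in the last cluster, against 27.6 to 50.9 in cluster 5. The 1 follicle cell marker was not called. Their part in the result was not tested.

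The highest fitted fold changes among genes whose embryos did not overlap were those of Camp, Tapdelta (a subunit of the translocon-associated complex), Ziz (a guanine nucleotide exchange factor), jar, CG8320 and Fen1. They rest on values near 0 in cluster 5, so the order among them is uncertain, and CG1598, next in it, had the same log2 fold change as Fen1 to 2 decimals (5.12). jar, which encodes myosin VI (3R, positions 24252826 to 24271233), had 31.1 to 46.9 (median 37.3) in the last cluster, against 0 to 1.97 (median 0.825) in cluster 5, a log2 fold change of 5.43 ± 0.30 (adjusted p = 2.77e-31). Its mean in the last cluster was 344% of positions 1 to 10, the highest share of the set, and its neighbour 147 bases away on the same strand, beta-PheRS, was at 23.2%. Ziz had 13.3 to 19.7 (median 15.4) in the last cluster, against 0 to 1.21 (median 0) in cluster 5, with 9 UMIs over the 9 embryos of cluster 5. Camp had 9.37 to 14.5 in the last cluster, against 0 to 1.25 in cluster 5, and Tapdelta 8.43 to 16.8, against 0 to 1.25. CG8320 had 2.67 to 5.79 in the last cluster, against 0 to 0.246 in cluster 5, where 2 UMIs were counted in all, so its fitted fold change is not printed.

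The groups by role were, as above, put together by hand after the values were seen, and their counts stand beside 69.2% called higher in the whole set and 30.8% of all genes. Of the genes of chromosomes, replication and repair, 9 of the 9 grouped here rose: Fen1, Mcm3, PolD1, PolH, Brca2, Fancm, SMC1, SA and Mis12. Fen1, the flap endonuclease, had 9.37 to 15.9 (median 11.7) in the last cluster, against 0 to 1.21 (median 0.391) in cluster 5, a log2 fold change of 5.12 ± 0.33 (adjusted p = 8.88e-27), and its mean was back at 91.3% of the start. This was the highest share of the group, whose median was 38.5% and whose lowest was 14.8%. Mcm3, a subunit of the replicative helicase, had 11.9 to 30.0 (median 22) in the last cluster, against 0 to 5.05 (median 2.51) in cluster 5, with a log2 fold change of 3.11 ± 0.22 (adjusted p = 2.13e-23). Mis12 had 3.75 to 5.79 in the last cluster, against 0 to 0.281 in cluster 5. In the list of 43 measured DNA replication genes, which includes Fen1, Mcm3 and PolD1, 24 rose and 1 fell in the last cluster, and 1 rose and 22 fell in cluster 5 against cluster 3.

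Of 10 genes grouped under chromatin and transcription 9 rose, while in the list of variant histones and early chromatin genes (35 measured), which includes E(z), 16 rose and 2 fell. E(z), the histone methyltransferase of the Polycomb system, had 34.3 to 62.6 (median 45.4) in the last cluster, against 1.69 to 9.83 (median 4.49) in cluster 5, a log2 fold change of 3.26 ± 0.27 (adjusted p = 4.99e-20). With calypso, the Polycomb deubiquitinase, its mean in the last cluster stood at 125% of the start. The median of the 10 grouped genes was 63.7%. Of the members grouped under translation and protein targeting 9 of 9 rose, with NAT1 at a log2 fold change of 1.66 ± 0.24 (adjusted p = 2e-09). Their median in the last cluster was 44.3% of the start. The lists for translation, in which none of these 9 stands, had other counts. Of 85 cytoplasmic ribosomal protein genes 2 rose and 0 fell, and of 17 listed tRNA synthetase genes 6 rose and 5 fell. The second list leaves out beta-PheRS, 1 of the 9, which encodes a tRNA synthetase subunit and rose (log2 fold change 2.95 ± 0.31). Of 7 genes of iron-sulfur cluster assembly and respiration, 6 rose, including UQCR-C2 and UQCR-6.4 of complex III with log2 fold changes of 1.91 ± 0.22 and 1.16 ± 0.22. In the list of 63 measured subunits of oxidative phosphorylation, which includes these 2, 4 rose and 2 fell, fewer than the 30.8% and 20.7% of all genes.

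In the oocyte and germ line group 1 of 9 rose, 1 fell and 7 were not called. In the list of 58 measured genes of egg activation, meiosis and cell cycle entry, which includes cort, CycJ and gammaTub37C, 18 rose and 8 fell. Of 34 measured determinants of the axes and germ plasm, which include exu and vas, 3 rose and 19 fell. Of 7 measured genes listed under yolk uptake and eggshell, which include fs(1)M3 and the nuclear envelope gene fs(1)Ya, 1 rose and 2 fell. In the group made by hand the gene that rose was cort, at 0.881 to 2.85 (median 1.41) in the last cluster, against 0 to 1.13 (median 0.418) in cluster 5. Its mean there was 11.7% of the start, the highest of the group, and the median of the group was 0.857%. Of the 21 metabolic genes 6 rose, 1 fell and 14 were not called, with a group median of 3.64% of the start. In the list of 43 measured genes of glycolysis, pentose phosphate and TCA cycle, which includes 5 of them, 7 rose and 17 fell. The last cluster was at 0.376% of the start for Tpi and 5.78% for Pgk.

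The 5 genes that fell in the last cluster against cluster 5 were CG8112, MsrA, exu, CG14036 and CG6770. MsrA had 0.745 to 5.15 (median 2.38) in the last cluster, against 7.02 to 16.9 (median 11.9) in cluster 5, a log2 fold change of -1.89 ± 0.31 (adjusted p = 3.97e-08), and was the gene among them whose embryos did not overlap. Clusters 6 and 7 in between had 6.43 to 14.8 and 5.14 to 14.9. Some embryos of the last cluster had been collected at 0-1 h or 1-2 h. With only embryos of 2-3 h in both clusters, an alternative chosen after seeing the data, 114 of the 172 genes rose and 5 fell.

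**Figure D4:**
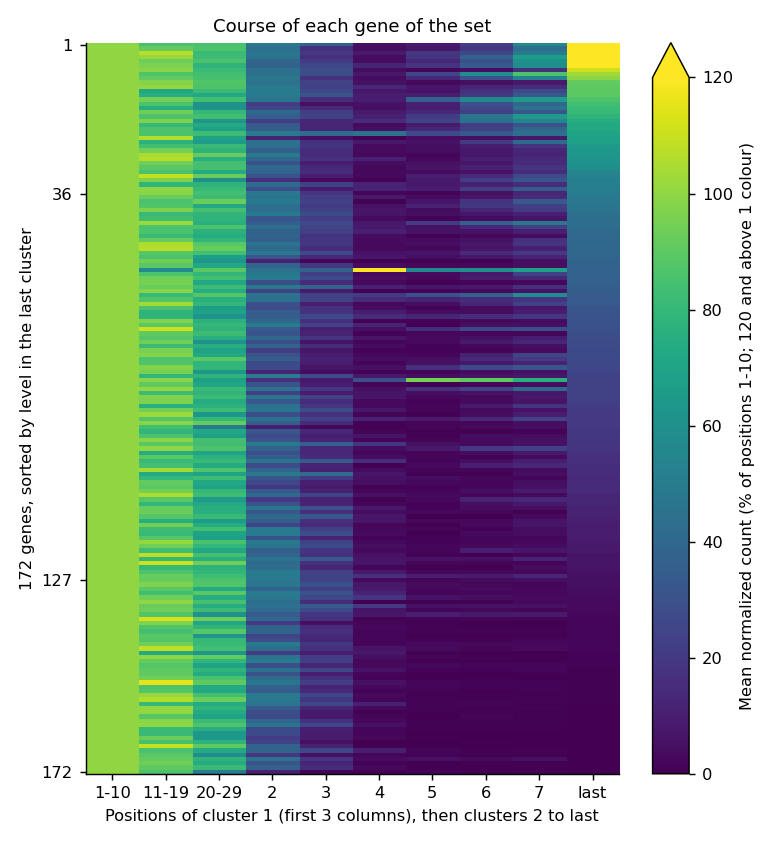
Mean normalized count of each of the 172 genes (rows, sorted by level in the last cluster) as a percentage of positions 1 to 10 (colour, values of 120 and above in 1 colour) in the 10 groups of embryos (columns). The first 36 rows are over 50% in the last cluster, and the 45 rows below row 127 are under 5%.

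**Figure D5:**
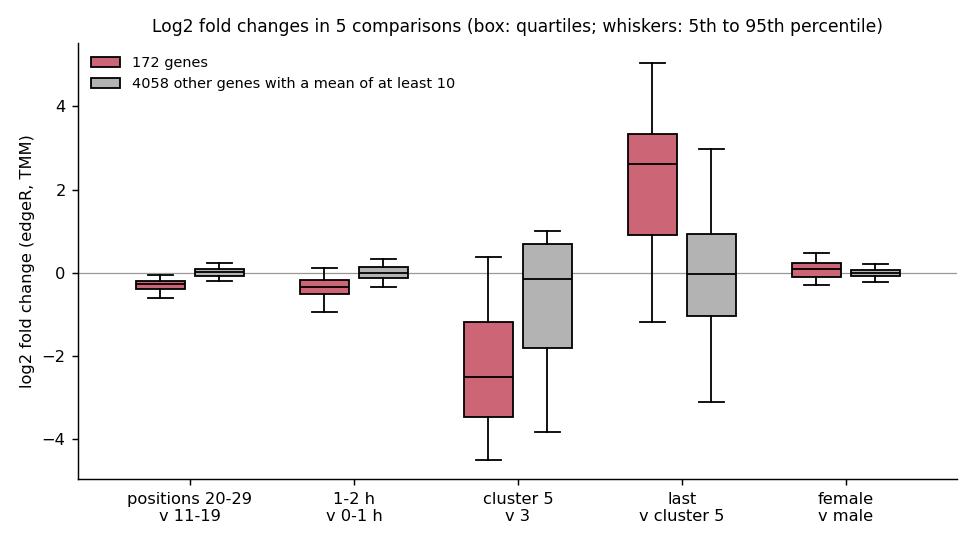
Log2 fold change (y axis, edgeR with TMM factors) of the 172 genes and of the 4058 other genes with a starting mean of at least 10, in 5 comparisons (x axis); boxes show quartiles, lines medians and whiskers the 5th to 95th percentile. The medians of the 172 genes are -2.50 in cluster 5 against cluster 3 and 2.61 in the last cluster against cluster 5, beside -0.15 and -0.03.

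Female and male embryos were compared at positions 41 to 84, with cluster as a factor, since the sex had been genotyped from DNA. With edgeR 0 of the 172 genes were called, against 0.302% of all genes higher, 0.0919% lower and 0.394% in either direction. An unadjusted p under 0.05 was found for 13 of the 172 and 569 of all 7619, so the share was near that of all genes. Sex and order were not balanced within clusters: in the last cluster the embryos at positions 76 to 79 were male and those at 80 to 84 female, and the first 4 embryos of cluster 5 were male. Females stood at a median position of 66 and males at 60, and the 172 genes made up a median of 0.289% of UMIs in females, against 0.201% in males. The part of position in any difference by sex was not tested. The gene nearest to the limit was CG9215, at 0 to 12.4 (median 4.83) in 23 females, against 0 to 6.96 (median 1.26) in 21 males, a log2 fold change of 0.87 ± 0.20 (adjusted p = 0.0119). DESeq2 called 2 of the 172 genes higher in females, CG9215 and Mcm3, and limma 0.

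Of 37 measured regulators of maternal RNA decay, 35 had a starting mean of at least 10 and 0 were among the 172. The set holds 4.07% of all genes at that level, and for a list of this size a count of 0 is near that share. The means of smg, brat and pum, which encode Smaug, Brat and Pumilio, were 117%, 142% and 125% of their start in cluster 2, and png, a kinase subunit of egg activation, was the lowest of the list at 55.3%. In cluster 5 against cluster 3, 13 of the 37 fell and 0 rose, beside 29.4% of all genes called lower and 36.4% of the other 4058. Of 34 measured determinants of the axes and germ plasm, exu and vas were in the set, while nos stood at 59.5% and bcd at 118% of the start in cluster 2. Likewise, of the genes listed for cytoplasmic ribosomal proteins (85 measured), proteasome subunits (32), chaperones (26) and nuclear transport (28), 0 were in the set. For the last 3 lists, with 31, 24 and 25 genes at that level, this is again near the share of 4.07%. The chaperone list does not include Pfdn6, which encodes a subunit of the chaperone prefoldin and is in the set.

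By annotation, the 172 genes had shorter transcripts than the other genes of the table at that level. By the annotation of release 6 of the fly genome, 170 were found and all are protein coding. The longest transcript had a median length of 1581 bases for the 170 genes, against 2342 bases for 4052 of the 4058 other genes. The longest annotated 3′ UTR had a median of 188 bases (quartiles 120.5 and 365), against 439 bases (quartiles 202 and 915) for the others. Transcripts under 1500 bases made up 42.9% of the set and 24.7% of the others. The median exon number was 3 and 4, and the median gene length 1948 and 3380.5 bases. The starting level was lower in the set, with a median mean of 26.1 against 32.6. These values are descriptions, and no test was made on them.

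The set and the other genes were spread over the chromosome arms as follows: 16.5% and 17.4% on 2L, 26.5% and 19.9% on 2R, 15.3% and 19.4% on 3L, 23.5% and 23.2% on 3R, and 18.2% and 18.8% on the X. The fourth chromosome held 0 of the 170 and 37 of the others. Of the 170 genes, 15 (8.82%) overlapped another gene on the same strand, where reads could be counted for either, as did 16% of the others. There were 12 pairs of neighbours within 10000 bases, such as IntS1 and gammaSnap1, and both of these were called higher in the last cluster, with means of 81.7% and 203% of the start. For the genes that rose in the last cluster the median 3′ UTR was 184 bases, against 185 bases in the 48 that were not called.

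The coefficient of variation over positions 1 to 10 had a median of 18.1% in the set and 13.8% in the other 4058 genes. These positions also entered the rule, and the set had the lower starting level (median mean 26.1 against 32.6). The part of either in the difference was not tested. Over 40% were Osi6 (56.2%), NAT1 (41.4%) and CG31075 (40.01%). Within the set, Spearman's rho between the starting mean and the share left in cluster 2 was 0.08 over 172 genes, which are not independent replicates. Over all 4230 genes with a starting mean of at least 10 it was 0.07. Both values were limited by the rule, and the starting mean is the divisor of the share. The rho is thus a description from which no relation or lack of one is drawn.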

How the data were processed

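Single embryos were profiled with a modified CEL-Seq2 protocol. The authors demultiplexed and aligned the reads with STAR 2.7.8a in STARsolo mode to release 6.28 of the genome and counted UMIs. They deposited a normalized signal for 84 embryos and 7629 genes, the UMI count divided by the embryo total, times the smallest total, plus 0.1. The authors also deposited raw counts, 1 column per numbered barcode and not normalized. Barcodes are not tied to embryos, so no result uses them: 98 columns per library were read and the remaining 188 were not used. After 0.1 was subtracted, 100% of the normalized values were whole multiples of the step of their embryo within 0.0001, and these recovered UMI counts were tested.

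The members and gene lists were chosen with earlier results of these data known. Cluster and sex come from the supplementary tables of the study, and order from the columns of the deposited normalized signal. The published order repeats 1 embryo and lacks the embryo at position 84 here, so later positions differ from it. Collection interval and cage were read from the embryo names. Each embryo is 1 replicate. The main test was edgeR's quasi-likelihood F test with TMM factors on 7619 genes with 3 or more counts in 5 or more embryos, Benjamini-Hochberg adjusted over all of them, in 1 fit of 84 embryos in 10 groups for the comparisons of clusters and positions. Calls needed an adjusted p under 0.01, and between clusters also more than 1 log2 unit. The SE is the log2 fold change over the root of F. Alternatives were DESeq2, limma on log2(normalized count + 1) or + 0.1, library totals, other filters, the compared groups alone, cage, and leaving out embryos. The script was tested on simulated data. Genes were matched to the Ensembl 115 annotation of release 6, where 1994 of 1994 comparable positions were the same as in the study. Named genes are the 12 of highest starting mean, the 10 of lowest ratio, the 6 largest rises and falls in the last cluster without overlap, members of the lists, and 3 genes on each side of a limit, of which 1 is not reported here; other named genes were chosen after seeing the values. R 4.3.3, edgeR 4.0.16, DESeq2 1.42.0, limma 3.58.1 and Python 3.11.15 were used.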

Additional observations from a re-analysis of the deposited data

Results flagged for a closer look

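Among the values by group of embryos, 104 groups were searched for a lowest or highest embryo far from the others, and 10 were found; chance gives about 1 in 20. In positions 1 to 10, CG6770 reached 493.4 in 1 embryo, with the next at 402.8. In positions 11 to 19, yin reached 339.8 in the embryo at position 15, with the next at 241.8. In the same group the embryo at position 16, collected at 1-2 h and with 362076 UMIs, was lowest for yata (96.24, next 165.6), Tpi (94.73, next 117.1) and Rilpl (82.6, next 104.5). In cluster 7 the embryo at position 75, next to the last cluster, was highest for yata (30.07, next 17.9) and vig2 (20.18, next 10.58), and that at position 74 for Rilpl (8.599, next 5.832). Cyp6a19, near 0 in both clusters, had 1 embryo at 3.345 in cluster 5, the next at 0.6034, and 1 at 1.288 in the last cluster, the next at 0.6091. The embryo of cluster 5 with 3.345, at position 57, had been collected at 0-1 h, and the 172 genes made up 0.158% of its UMIs, the highest share of cluster 5.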

How the results depend on the processing

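The size of the set follows its limits: 261 genes with a minimum mean of 5, 104 with 20, 93 with a ratio under 40% and 295 with under 60%, against 172; TMM-scaled counts gave 185 (169 shared) and medians 189 (163 shared). For embryos of 1-2 h against 0-1 h, 13 genes were lower, but 0 with limma, 7 with at least 10 counts in at least 5 embryos, and 1 to 8 without 1 of the 1-2 h embryos; 0 were higher in any fit. In cluster 5 against cluster 3, the 6 higher genes became 2 with limma and 3 with library totals, and in the last cluster against cluster 5 the 5 lower genes became 2 with limma. Between females and males the 0 higher genes became 2 with DESeq2, 1 without a filter on low counts and 1 with at least 10 counts in at least 5 embryos. The cause was not tested. The 128 and 119 genes lower and higher in the 2 cluster comparisons stayed within 119 to 136 and 109 to 125. TMM factors set the median over all genes at 0.13 in cluster 5 against cluster 3 (library totals -0.03) and at 0.18 in the last cluster against cluster 5 (library totals 0.10, DESeq2 0.45). For single named genes over the alternatives, 494 results kept their direction and side of the limit, 56 were no longer called and 0 changed sign. No paired analysis was possible because the replicate numbers in the labels only name the 2 libraries of 1 group. The values are shares of captured polyadenylated RNA, and genes near 0 rest on a few UMIs per embryo.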
